A study of Rattus norvegicus with 4 samples.

Results

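The regenerating islet-derived (Reg) genes on a rat gene expression array were followed in the pancreas of rats fed too little, enough or too much iron. An array probe belonged to the family when its symbol was Reg1a, Reg3a, Reg3b, Reg3g or Reg4, with the symbol taken from the tables that the authors deposited or, where these gave none, from the accession of the probe. This gave 5 genes of 26540 and 5 probes of 30367, each with 1 spot on every array. The genes were chosen with their ratios in these samples already known, so their ratios and ranks are given as descriptions, with no test.

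The rats were male Sprague-Dawley weanlings, and no genetic alteration is named for any group. They were fed for 3 weeks on a diet with 5 ppm iron (iron-deficient, FeD), 35 ppm iron (iron-adequate, FeA, the control) or 20275 ppm iron (iron-overloaded, FeO), with iron contents as the sample labels give them. Pancreatic RNA of 6 rats per diet was mixed into a single pool. Each of the FeD and FeO pools shared 2 two-colour arrays with the same FeA pool, labelled with Cy5 on array 1 and with Cy3 on array 2. Because a repeat array holds the RNA of the first, the pair counts as 1 replicate, the SD between them is technical, and differences among rats within a diet are averaged away in the pool. No test of the diets was possible. The pools are of whole pancreas, and a larger share of a cell type cannot be told apart from more RNA per cell of that type.

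Reg genes encode small secreted proteins with a C-type lectin fold, and several were found as proteins made by the regenerating or inflamed pancreas. Reg1a is named for regenerating islets, and its product is also known as lithostathine, a protein of pancreatic juice made by acinar cells. Reg3a and Reg3b encode pancreatitis-associated proteins, which acinar cells make in large amounts during acute pancreatitis, and Reg3g is a related antibacterial lectin best known from the epithelium of the small intestine. Reg4 lies on another chromosome and is known from endocrine and goblet-type cells of the gut. Cytokines of the interleukin 6 and interleukin 22 families that signal through the transcription factor STAT3 are known inducers of several Reg genes, and the glycosyltransferase Extl3 has been described as a Reg receptor.

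In the RefSeq annotation of the rat genome build GRCr8, Reg3b, Reg3a, Reg1a and Reg3g lie side by side on chromosome 4 in this order, with a Reg3b pseudogene and a long non-coding RNA gene between them that have no probe of that name on the array. Reg4 lies on chromosome 2. Reg3g runs on the opposite strand to the other members of the cluster. The 250 bases before the annotated start of each cluster gene are shown because 3 of the 4 genes were far higher in FeO pancreas and Reg3g, from the same cluster, was not. Capitals mark matches on either strand to TTCNNNGAA (the form of a STAT site), CTGGGA (the core of the interleukin 6 response element of acute phase genes), TATAAA (the TATA box) and TTGCNNAA (a C/EBP form).
Reg1a, chr4:112450216-112450465, plus strand: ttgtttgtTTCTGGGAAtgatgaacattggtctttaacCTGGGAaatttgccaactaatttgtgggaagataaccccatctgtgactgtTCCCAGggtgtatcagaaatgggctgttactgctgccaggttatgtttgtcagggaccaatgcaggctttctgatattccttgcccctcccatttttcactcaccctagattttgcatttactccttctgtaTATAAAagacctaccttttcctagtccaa
Reg3a, chr4:112430147-112430396, plus strand: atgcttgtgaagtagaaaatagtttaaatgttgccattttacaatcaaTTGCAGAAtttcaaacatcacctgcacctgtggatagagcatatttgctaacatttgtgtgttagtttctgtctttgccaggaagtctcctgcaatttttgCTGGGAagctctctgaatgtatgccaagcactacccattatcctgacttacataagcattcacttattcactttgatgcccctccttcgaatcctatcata
Reg3b, chr4:112419526-112419775, plus strand: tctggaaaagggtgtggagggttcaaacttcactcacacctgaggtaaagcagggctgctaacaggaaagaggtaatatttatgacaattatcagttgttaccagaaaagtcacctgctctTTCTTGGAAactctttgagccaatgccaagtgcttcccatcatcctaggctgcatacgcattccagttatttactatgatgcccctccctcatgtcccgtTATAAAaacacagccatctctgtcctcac
Reg3g, chr4:112484739-112484988, minus strand: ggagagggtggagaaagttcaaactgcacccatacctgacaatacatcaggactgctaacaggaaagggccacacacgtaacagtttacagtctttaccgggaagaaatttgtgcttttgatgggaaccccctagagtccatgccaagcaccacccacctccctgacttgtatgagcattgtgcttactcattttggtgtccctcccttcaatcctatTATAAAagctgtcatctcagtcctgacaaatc
The STAT form stood in the Reg1a stretch, as TTCTGGGAA from 242 to 234 bases before the start, where it overlapped a CTGGGA, and in the Reg3b stretch, as TTCTTGGAA from 129 to 121 bases before the start. CTGGGA stood in Reg1a at 3 places, in Reg3a at 1 place, from 101 to 96 bases before the start, and in neither Reg3b nor Reg3g. A TATA box began 29 bases before the start in Reg1a and in Reg3b and 32 bases before it in Reg3g. Over 33360 rat stretches of the same length, 7.68% held the STAT form, 25.7% held CTGGGA, 12.9% held TATAAA and 9.2% held TTGCNNAA. The motifs are thus common, and each match describes letters only, not a bound site. By global alignment, Reg3b and Reg3g had the most alike upstream stretches of the cluster, with 63.8% identical positions. These shares depend on the annotated starts, and their relation to the array ratios was not tested. Reg3a and Reg3b shared 55.0% and Reg1a and Reg3a 53.5%. The Reg4 stretch was 46.3% to 49.8% identical to those of the other members.

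Reg1a gave the largest member ratio in FeD pancreas and was high in FeO pancreas too. Its median spot signal on the FeD arrays was 87498 in Cy5 and 36007 in Cy3 for the FeD pool, against 10460.5 in Cy3 and 17394 in Cy5 for the FeA pool. On the FeO arrays it was 348174 in Cy5 and 173104 in Cy3 for the FeO pool, against 6217 in Cy3 and 17206 in Cy5 for the FeA pool. Local background lay between 51.5 and 98 intensity units, so Reg1a was a strong signal in every pool, already at least 110 times the background in FeA pancreas. Every FeO signal exceeded every FeD signal, and every FeD signal exceeded every FeA signal.

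Reg3a, by contrast, was a moderate signal in FeA and FeD pancreas and a strong one in the FeO pool. Its signal on the FeD arrays was 3494 in Cy5 and 1355.5 in Cy3 for FeD, against 914 in Cy3 and 1315.5 in Cy5 for FeA. On the FeO arrays it was 45578 in Cy5 and 21535 in Cy3 for FeO, against 856 in Cy3 and 1390 in Cy5 for FeA. Both FeO signals lay above all others, whereas the FeD signal in Cy3 lay within the range of the FeA signals until dye differences were removed by normalization.

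Reg3b followed Reg3a closely. Its signal on the FeD arrays was 2885 in Cy5 and 1221 in Cy3 for FeD, against 857 in Cy3 and 1192 in Cy5 for FeA. On the FeO arrays it was 33445 in Cy5 and 17707 in Cy3 for FeO, against 965 in Cy3 and 1494.5 in Cy5 for FeA. As for Reg3a, the FeO pool stood apart in both dyes and the raw FeD and FeA signals overlapped.

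Reg3g and Reg4 were near the detection limit. The Reg3g signal on the FeD arrays was 120.5 in Cy5 and 71.5 in Cy3 for FeD, against 93.5 in Cy3 and 154 in Cy5 for FeA. On the FeO arrays the Reg3g signal was 117 in Cy5 and 75 in Cy3 for FeO, against 94.5 in Cy3 and 140 in Cy5 for FeA. The FeA signals were between 1.60 and 1.87 times the local background, and those of both diets were between 1.34 and 1.39 times it. Reg4 on the FeD arrays was at 129 in Cy5 and 81.5 in Cy3 for FeD, against 137 in Cy3 and 239.5 in Cy5 for FeA. On the FeO arrays Reg4 was at 115 in Cy5 and 75 in Cy3 for FeO, against 136 in Cy3 and 224 in Cy5 for FeA. By the criterion of the scanner software, both genes were well above background in all 4 FeA channels and in 0 of 4 channels of the other diets, so for these genes a ratio is only a bound. Reg1a, Reg3a and Reg3b were well above background in 8 of 8 channels, and no Reg spot was saturated.

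**Figure D1:**
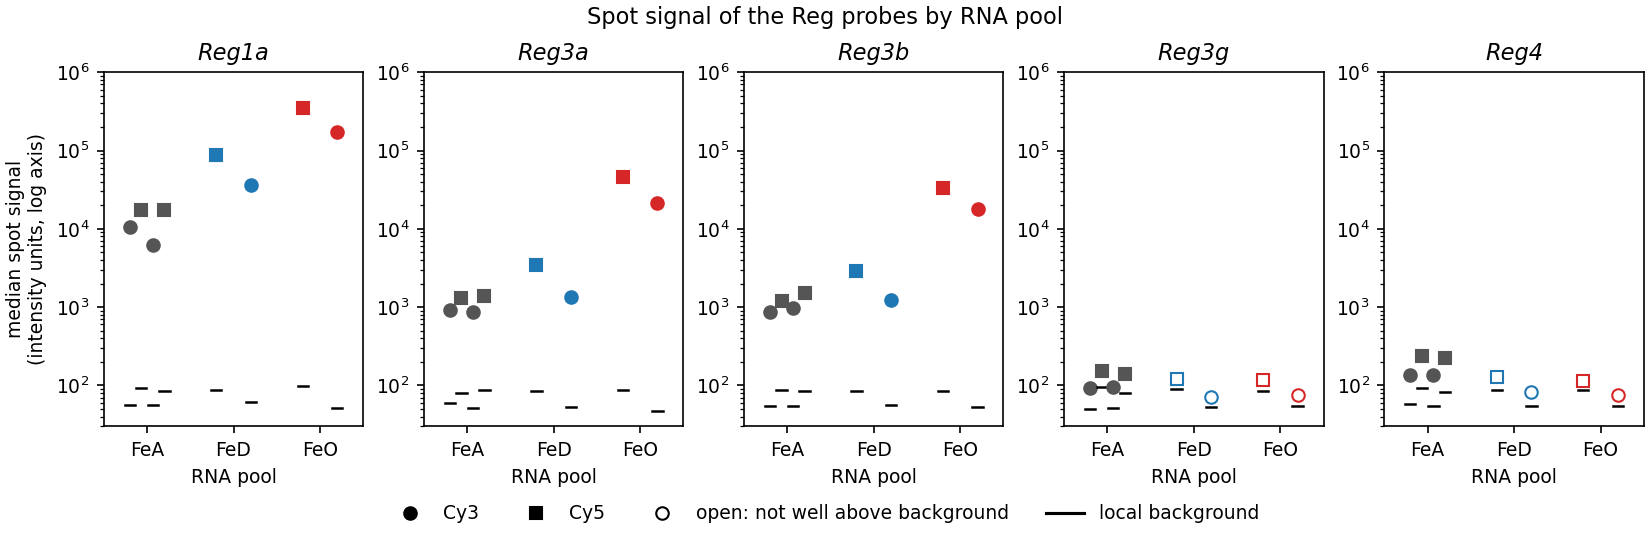
Median spot signal of the 5 Reg probes in intensity units (log axis) in each RNA pool, 1 symbol per channel (circles Cy3, squares Cy5), with local background as short bars and open symbols where the channel was not well above background. Reg1a, Reg3a and Reg3b stand highest in the FeO pool, and Reg3g and Reg4 sit just above background in every pool.

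The brightest spots were read in another way than the rest. The scanner software read some spots from a scan at low detector gain and scaled them up. This held for Reg1a in both FeD and both FeO channels, for Reg3a in both FeO channels and for Reg3b in the FeO channel of array 1, and for no FeA channel. The part of this scaling in the ratios was not tested, but for Reg3b both kinds of reading exist. Its log2 ratio was 3.95 with the low-gain reading and 4.29 on array 2, where the FeO channel was read at high gain. The arrays also differ in dye orientation, so gain and dye cannot be told apart here. In FeD, where no Reg3b channel was read at low gain, the ratios were 0.74 on array 1 and 1.04 on array 2.

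After background correction and normalization, levels on the log2 scale kept the order FeO above FeD above FeA for Reg1a, Reg3a and Reg3b, without overlap between the channels of different pools. These genes were chosen with their ratios known, and the share of all genes that separate so is not given. Nothing therefore follows from the lack of overlap. Reg1a was at 13.63 ± 0.24 in FeA (SD, n = 4 channels), 15.74 ± 0.17 in FeD (n = 2) and 17.77 ± 0.17 in FeO (n = 2). Reg3a was at 10.14 ± 0.15 in FeA, 11.02 ± 0.01 in FeD and 14.86 ± 0.02 in FeO, with the same numbers of channels. Reg3b was at 10.14 ± 0.29, 10.81 ± 0.07 and 14.49 ± 0.09. The SD is over channels of 1 pool and does not measure rats. For Reg3b the lowest FeD level, 10.76, was 0.28 above the highest FeA level, 10.48, the narrowest gap among these 3 genes. Reg3g was at 6.65 ± 0.06 in FeA, above 6.17 ± 0.12 in FeD and 6.14 ± 0.03 in FeO. Reg4 was at 7.32 ± 0.12 in FeA, above 6.36 ± 0.26 in FeD and 6.08 ± 0.14 in FeO. For both genes the FeD and FeO channels overlapped, so these pools had no order.

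In FeD pancreas, Reg1a was 4.12-fold higher than in FeA pancreas, at 1.88 on array 1 and 2.21 on array 2 on the log2 scale (mean 2.04 ± 0.23, SD). Reg1a was the 1 Reg gene of 5 with a mean log2 ratio of at least 2 and the same sign on both arrays, the size criterion used here. The study set the same size but added a significance test per probe, which with 1 pool per diet was run as an alternative only. Over all genes tested, 0.019% (3 of 15750) passed it upward, and since the members were chosen with this comparison known, nothing follows from the contrast of these shares. Array 1 alone put Reg1a at 1.88, below the criterion, so the call rests on array 2. Reg3a had log2 ratios of 0.93 and 1.05 (mean 0.99 ± 0.09), a 1.99-fold difference. Reg3b had log2 ratios of 0.74 and 1.04 (mean 0.89 ± 0.22), a 1.85-fold difference. Among the 15750 genes, Reg1a ranked 3, Reg3a 21 and Reg3b 36 from the top, so Reg3a and Reg3b stood high in the order although neither reached a log2 ratio of 1. The array pairs of all probes differed by a median of 0.22, and 95% of them by less than 0.72. This spread is technical and says nothing of rats.

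In FeO pancreas all 3 of these genes passed the size criterion, and they took the first 3 places of 16447 genes. Over all genes tested, 0.0608% (10 of 16447) passed upward, and again nothing follows from the comparison because the members were chosen on it. At a log2 ratio of 1 or more, 1 member was higher and 0 lower in FeD (0.127% and 0.248% of all genes), and 3 were higher and 1, Reg4, lower in FeO (0.663% and 0.505%). Reg3a was 24.5-fold higher than in FeA pancreas (4.55 and 4.68, mean log2 ratio 4.62 ± 0.09). Reg1a was 18.3-fold higher (4.35 and 4.04, mean 4.20 ± 0.22). Reg3b was 17.4-fold higher (3.95 and 4.29, mean 4.12 ± 0.24). The FeO ratios of Reg1a and Reg3b were 0.08 apart, which was smaller than the difference between the arrays for either gene, so their order is not settled.

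Reg3g and Reg4 went the other way in both comparisons. Reg3g had log2 ratios of -0.65 and -0.34 in FeD and -0.52 and -0.47 in FeO pancreas, and Reg4 had -1.04 and -0.88 in FeD and -1.23 and -1.24 in FeO. As both diet pools were not well above background, these are best read as bounds. They are bounds on the mean of the 2 arrays with the main processing. Against FeA, the FeD pool held at least 1.39-fold less Reg3g and at least 1.94-fold less Reg4. The bound for Reg4 in FeD equals its measured mean ratio, and array 2 alone gave a smaller difference for both genes. For the FeO pool the bounds were at least 1.36-fold for Reg3g and at least 2.28-fold for Reg4. Neither gene passed the size criterion downward, which 0.0889% of all genes did in FeD and 0.134% in FeO. All 5 members passed the filter on dim probes, Reg3g and Reg4 only through FeA, so both had to be lower in the other diets.

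**Figure D2:**
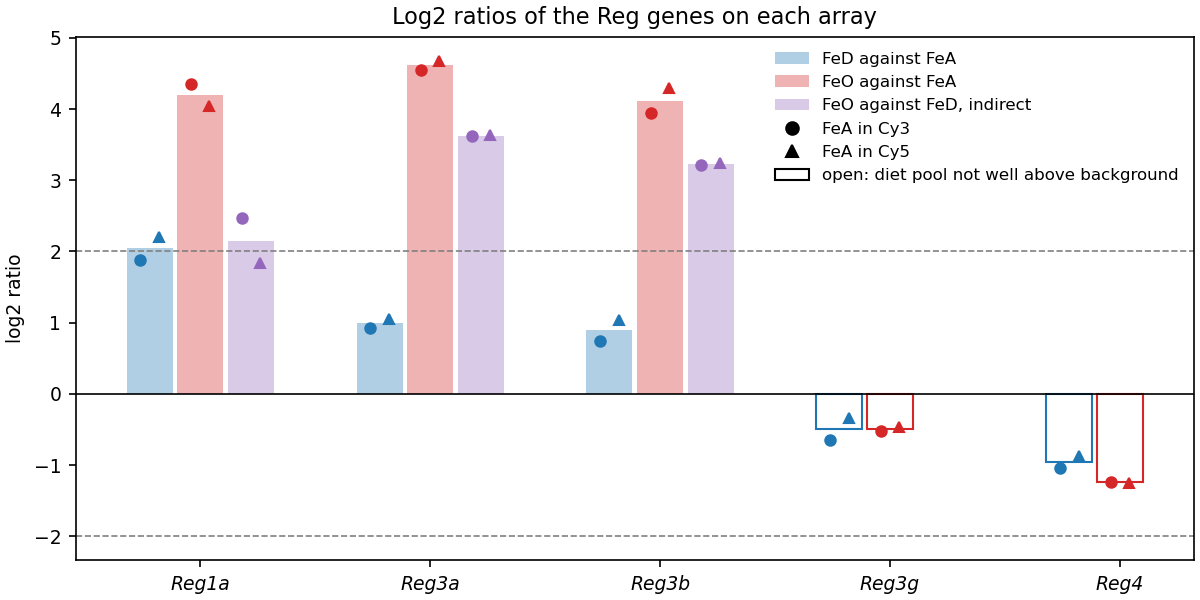
Log2 ratios of the 5 Reg genes in FeD against FeA, FeO against FeA and FeO against FeD taken indirectly; bars are means of 2 values and points the values by dye orientation, with dashed lines at the size criterion of 2. Reg3a and Reg3b are near 1 in FeD and above 3.9 in FeO on each array, Reg1a is near 2 and above 4, and Reg3g and Reg4, drawn as open bars because the diet pool was not well above background, lie below 0 in both diets.

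The 2 diets were not hybridised against each other, and both comparisons share the FeA pool. The FeO pool was set against the FeD pool indirectly, as the difference of the ratios within each dye orientation. Reg3a was 12.3-fold higher in FeO than in FeD (log2 ratios 3.62 and 3.63), Reg3b 9.37-fold higher (3.21 and 3.25) and Reg1a 4.45-fold higher (2.47 and 1.83). All 3 passed the size criterion upward here, as did 0.0711% of 16882 genes, and no member passed it downward, as 0.0474% did. At a log2 ratio of 1 the members' counts were the same, against 0.474% of all genes upward and 0.539% downward. Reg1a thus had the largest ratio of the family in FeD and the smallest of the 3 between FeO and FeD. For Reg3g and Reg4 neither of these pools was well above background, so no ratio between them is given.

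**Figure D3:**
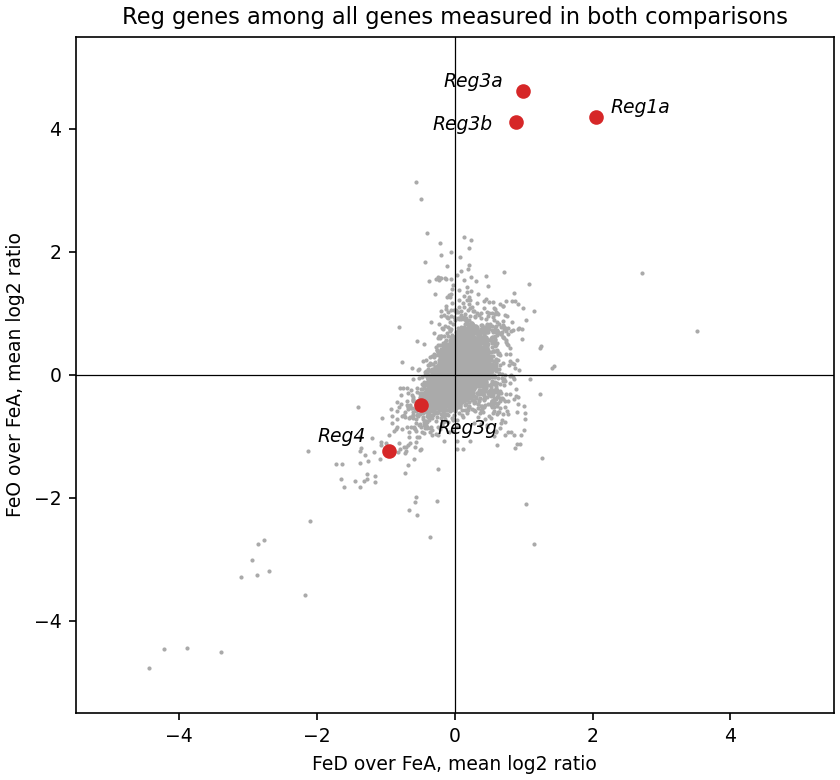
Mean log2 ratio of FeO over FeA (vertical) against FeD over FeA (horizontal) for genes measured in both comparisons, with the 5 Reg genes in red. Both axes share the FeA pool, so the shape of the cloud is no measure of likeness between the diets; Reg1a, Reg3a and Reg3b lie above 4 on the vertical axis, away from all other genes.

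The closeness of patterns was measured as the Euclidean distance between log2 ratios over the 4 arrays, among 15260 genes. Reg3a and Reg3b were 0.74 apart, and Reg1a was 1.64 from Reg3a and 1.70 from Reg3b. No gene outside the family lay within a distance of 1 of any of the 3. These 3 were chosen with their ratios known and had the largest ratios in FeO, so nothing follows from this. The nearest to Reg3a and Reg3b was Pla2g2a, a secreted phospholipase with antibacterial action (3.09 and 2.52), followed by Ucma, a secreted cartilage matrix protein (3.26 and 2.68). Pla2g2a was at 2.65 and 3.61 in FeO but at -0.59 and -0.53 in FeD, where Reg3a and Reg3b were higher than in FeA. The nearest to Reg1a were Tdh, L-threonine dehydrogenase (3.76), which was higher in FeD (2.55 and 2.88) than in FeO (1.43 and 1.88), and C6, a component of the complement attack complex (3.90). Outside FeA the signals of Reg3g and Reg4 did not clear background, so their distances rest on ratios limited by the detection floor. Reg3g had 4841 genes within a distance of 1, the nearest being Ppp1r3a (0.11), an expressed sequence with no gene name (0.14) and LOC680835 (0.14). Reg4 had 73 such genes and was nearest to Clca4 (0.07), at -1.06, -0.91, -1.28 and -1.27 on the 4 arrays, then Kirrel3 (0.20) and Clca1 (0.21). Unlike Reg4, Clca4 and Clca1 were well above background in every channel.

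Genes flanking the cluster on chromosome 4 stayed near 0. Ctnna2, a neuronal catenin, had mean log2 ratios of -0.18 in FeD and -0.06 in FeO, Lrrtm4, a synaptic adhesion protein, 0.01 and 0.06, and Gcfc2 -0.14 and -0.03. Beside Reg4, the serine synthesis enzyme Phgdh had -0.23 and -0.20.

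The cytokines and receptors known to induce Reg genes were close to 0 where they could be measured. For this and the following lists, counts and medians cover the genes well above background in both pools of a comparison, since a gene seen in one pool alone had to differ. By that rule 0.138% of 14454 genes were a log2 unit or more higher and 0.173% lower in FeD, and 0.683% of 15075 genes were higher and 0.438% lower in FeO. The median over these genes was 0.01 in both. Of 23 listed cytokines and receptors, 16 were measured so in FeD and 17 in FeO, none was a log2 unit or more from 0, and the medians were 0.10 and 0.03. Il6, Il22, Ifng and the interleukin 1 receptor gene Il1r1 were not well above background in any channel. Osmr, the oncostatin M receptor, and the cytokine gene Il17a did not pass the filter. Nothing can be said of any of these genes. Il6st, the shared signalling chain of the interleukin 6 family, was at 0.08 in both diets, Il6r at 0.14 in FeD and 0.07 in FeO, and Il22ra1 at -0.01 and -0.04. The largest ratio of the list was that of the receptor gene Lifr in FeO, at -0.14 and -0.74 (mean -0.44), against 0.06 in FeD. The cytokine gene Il11 was at 0.06 and -0.26. Extl3 was at 0.24 and 0.48 in FeD (mean 0.36) and 0.17 and 0.41 in FeO (mean 0.29).

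The JAK-STAT3 genes lay near 0 too, with medians of 0.05 over 11 genes in each diet and none at a log2 ratio of 1. Stat3 itself had 0.20 and 0.19 in FeD and 0.34 and 0.58 in FeO, and the feedback inhibitor Socs3 had means of 0.11 and 0.21. The phosphatase gene Ptpn2 was at -0.19 in FeD and 0.05 in FeO. Messenger levels do not show STAT3 activity, which depends on phosphorylation.

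Among genes that STAT3 is known to drive in the acute phase response, 13 of 17 were higher on both arrays in FeO and 0 lower on both, with a median of 0.56. Over all genes 27% were higher and 24.2% lower on both arrays in FeO. In FeD 11 of 17 were higher on both arrays and 0 lower, with a median of 0.29, against 25.6% and 20.5% of all genes. The list was not tested against other genes. A further 3 genes, Fgg, Hp and A2m, passed in FeO through the FeO pool only and are left out of these counts, and without any filter on dim probes the FeO median was 0.22.

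Of the 17 acute phase genes, 4 reached a log2 ratio of 1 in FeO and none did in FeD. The protease inhibitor Serpina3n had 1.27 and 1.12 in FeO and a mean of 0.84 in FeD. The kinase gene Pim3 had 1.25 and 1.05 in FeO and a mean of 0.92 in FeD. Lcn2, which encodes the iron-siderophore-binding lipocalin 2, had 0.78 and 1.51 in FeO and a mean of 0.66 in FeD. Timp1, an inhibitor of matrix metalloproteinases, had 1.18 and 0.89 in FeO and a mean of 0.09 in FeD. Their FeO means, 1.03 to 1.19, lay far below those of Reg1a, Reg3a and Reg3b.

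Other genes linked to pancreatitis and acinar stress stayed within a log2 unit of 0. The medians were 0.11 over 22 genes in FeD and 0.03 over 20 genes in FeO. Spink3, a trypsin inhibitor of pancreatic juice, had means of 0.44 and 0.62, and Ccl2, a monocyte chemoattractant, had 0.56 and 0.90. Nupr1, a stress gene first found in acute pancreatitis, was at 0.26 in FeD and -0.29 in FeO. Krt18, an acinar keratin, was at -0.41 and -0.78, Trib3, a stress-induced pseudokinase, at -0.83 and -0.59, and Anxa1, an anti-inflammatory annexin, at 0.19 and 0.69.

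Secreted antimicrobial proteins other than Reg genes were mixed, with medians of -0.05 over 12 genes in FeD and -0.06 over 13 in FeO. In FeO, 2 were higher by at least a log2 unit, Pla2g2a (mean 3.13) and Lcn2 (1.15), and 1 was lower by that much, Ang, a secreted ribonuclease (-1.25). Slpi, a leukocyte protease inhibitor, was at 0.94 in FeD and 0.77 in FeO.

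**Figure D4:**
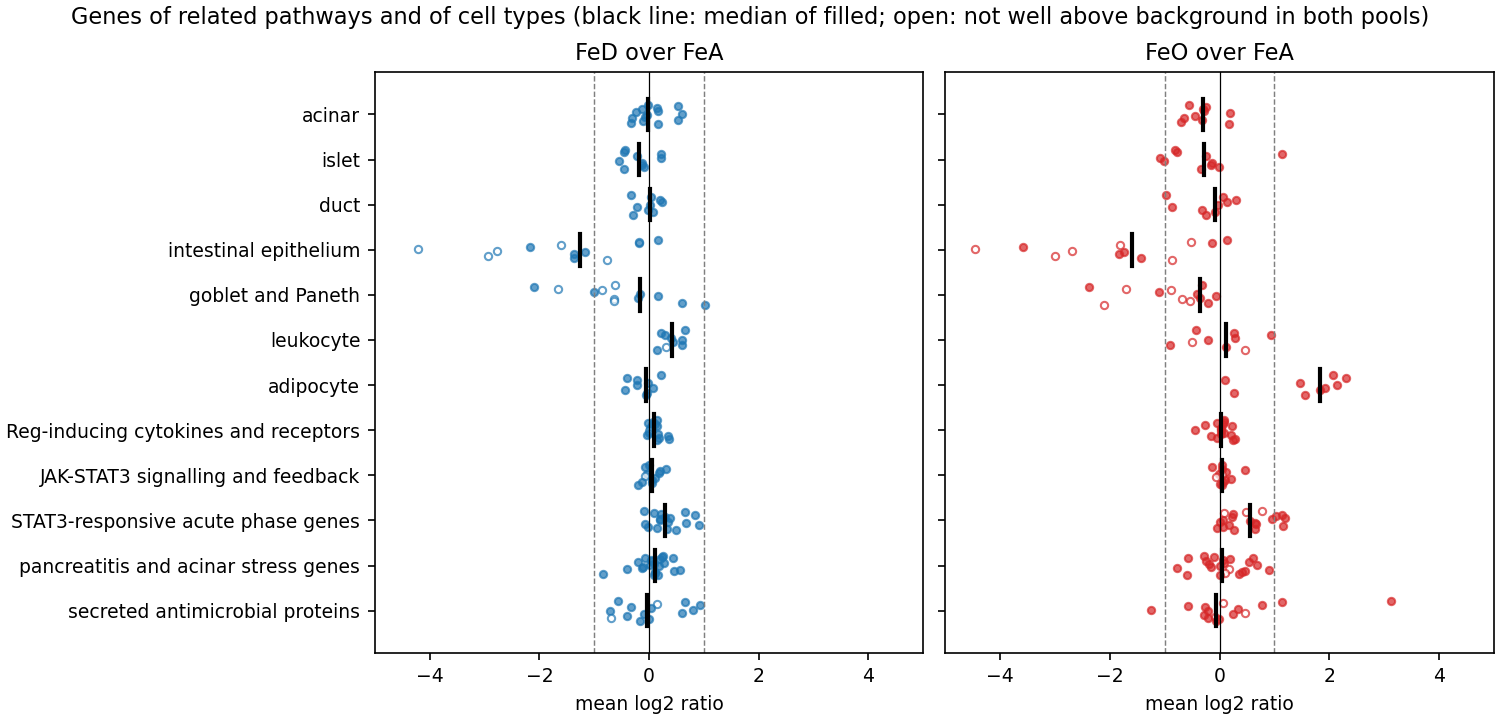
Mean log2 ratios over FeA of the genes of 12 lists in FeD (left) and FeO (right), 1 point per gene, filled where the gene was well above background in both pools and open where it was not, with black lines at the medians of the filled points and dashed lines at -1 and 1. The intestinal list has medians of -1.27 in FeD and -1.59 in FeO, the adipocyte list -0.06 and 1.83, and the cytokine and JAK-STAT3 lists sit near 0.

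Marker genes of the cells that a pancreas sample could hold differed between the pools as well, and their part in the Reg ratios was not tested. The RNA was pancreatic by its acinar markers, digestive enzymes and acinar transcription factors whose summed level lay at 21.61 to 22.14 on the log2 scale in FeA, 22.10 to 22.14 in FeD and 21.17 to 21.95 in FeO. Their median log2 ratio was -0.03 over 14 genes in FeD and -0.31 over 10 genes in FeO, where Cela2a, Cpa1, Prss1 and Clps were left out because a spot was marked as an outlier on an array. On such an array the FeA and FeO sums lack the marked genes as well. The acinar sums of these pools thus do not cover the same genes on every array, and their low ends cannot be read as lower acinar levels. With median centring in place of loess the FeO median was 0.02. The largest acinar ratios were those of the transcription factor Ptf1a (-0.33 in FeD and -0.71 in FeO), the lipase Cel (-0.31 and -0.65), the protease Ctrb1 (0.60 and 0.19) and the amylase Amy2a3 (-0.02 and -0.56).

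Islet hormones went apart in the FeO pool, where the Reg genes were highest. Gcg, the glucagon gene, had a mean of 1.14 in FeO, higher on both arrays, and of 0.21 in FeD. Ppy, the pancreatic polypeptide gene, was at -1.29 and -0.87 in FeO (mean -1.08) and 0.22 in FeD, Iapp, the amylin gene, at -0.85 and -1.19 in FeO (mean -1.02) and -0.55 in FeD, and Ins1, an insulin gene, at -0.81 in FeO and -0.44 in FeD. Of 10 islet markers, 1 was higher and 8 lower on both arrays in FeO, and 1 higher and 4 lower in FeD. The shares of all genes higher and lower on both arrays were 27% and 24.2% in FeO and 25.6% and 20.5% in FeD. The islet medians were -0.17 in FeD and -0.29 in FeO, and the summed levels 17.49 to 17.90 in FeA, 17.20 to 17.26 in FeD and 16.92 to 17.10 in FeO. Duct markers had medians of 0.02 and -0.08 with sums of 12.77 to 13.01 in FeA, 12.69 to 13.00 in FeD and 12.47 to 12.80 in FeO. The largest duct ratios were those of the keratin Krt19 (-0.33 in FeD and -0.98 in FeO), Spp1 (-0.22 and -0.88), Car2 (-0.02 and -0.33) and the chloride channel Cftr (0.21 and 0.29).

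Adipocyte markers were higher in the FeO pool alongside the 3 Reg genes. Of 9 measured, 7 had a log2 ratio of at least 1 in FeO, against 0.683% of all genes, and 0 in FeD, against 0.138%. These 7 were Cfd (2.30), Car3 (2.14), Adipoq (2.07), Cidec (1.92), Retn (1.83), Pparg (1.56) and Fabp4 (1.47), adipokines and genes of fat storage. The summed level was 13.29 to 13.64 in FeA, 13.16 to 13.34 in FeD and 15.30 to 15.34 in FeO. In FeD, where Reg1a was 4.12-fold higher, the adipocyte median was -0.06. Leukocyte markers were higher with the Reg genes in FeD, where 7 of 8 were higher on both arrays (median 0.42) and the summed level was 13.82 to 14.05 against 12.15 to 13.54 in FeA. In FeO, where the Reg ratios were larger, 2 of 7 were higher and 2 lower on both arrays, with a median of 0.11, or -0.15 by array 2 alone over the genes that passed the main filter, and a summed level of 12.32 to 13.07. Of all genes, 25.6% were higher and 20.5% lower on both arrays in FeD, and 27% and 24.2% in FeO. Among the leukocyte markers Cd14, a monocyte receptor, was at 0.29 in FeD and 0.94 in FeO, and Lyz2, a lysozyme, at 0.60 and -0.21.

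Most intestinal markers were lower in both diets. Reg3g and Reg4 passed the filter through FeA only and had to be lower, so their direction cannot be set beside that of these markers. Of 12 intestinal epithelial markers, 6 were well above background in both pools of each comparison, and the other 6 passed through FeA only and so had to be lower. Of the 6 measured in both pools, 4 had a log2 ratio of -1 or less in each comparison, against 0.173% of all genes in FeD and 0.438% in FeO, and the medians were -1.27 and -1.59. These 4 were Lgals4, a galectin of enterocytes (-2.18 in FeD and -3.59 in FeO), Guca2a, the guanylin gene (-1.38 and -1.83), the keratin Krt20 (-1.16 and -1.74) and Alpi, intestinal alkaline phosphatase (-1.37 and -1.43), whereas Cdx1, an intestinal transcription factor, was at 0.16 and 0.13. Among those below background in a diet pool, the FeO pool held at least 21.8-fold less Fabp1, at least 7.95-fold less Apoa1, at least 6.32-fold less Fabp2 and at least 3.54-fold less Cdh17 than FeA. In FeD, where Fabp1, Apoa1 and Cdh17 were well above background on 1 array of 2, the measured log2 ratios were -4.21, -2.94 and -1.61, and Fabp2 was at least 6.77-fold lower. By qRT-PCR, the study did not detect Fabp1, Fabp2 or Apoa1 in pancreas, so these array differences lack support from that method. The summed level of the list was 13.19 to 13.26 in FeA, 12.05 to 12.36 in FeD and 11.79 to 12.11 in FeO.

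Goblet and Paneth cell markers were mixed. Of 12 markers, 5 passed through FeA only, and of the other 7, 3 were lower and 2 higher on both arrays in FeD (median -0.17) and 4 lower and 0 higher in FeO (median -0.36). Among all genes 20.5% were lower and 25.6% higher on both arrays in FeD, and 24.2% and 27% in FeO. The 2 higher in FeD were Lyz2, which is also in the leukocyte list, and Mmp7, a gene of ducts as well. The summed level of the 12 markers, 18.19 to 18.87 in FeA, 18.42 to 18.95 in FeD and 18.18 to 18.72 in FeO, overlapped between the pools. As a sum of linear levels, it is set by the brightest genes of the list. It does not measure dim markers such as Agr2 and Defa6, at 7.89 and 6.87 in FeA on the FeD arrays. The goblet cell genes Tff3 (-2.10 in FeD and -2.38 in FeO) and Clca1 (-1.08 and -0.92 on the FeD arrays, -1.15 and -1.07 on the FeO arrays) were lower and were well above background in every pool, and the bounds for Agr2, dim in both diets, were at least 3.14-fold less in FeD and at least 3.24-fold less in FeO.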

How the data were processed

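RNA pools of pancreas from 6 rats per diet were hybridised on 4 two-colour arrays of 1 slide and 1 scan. The deposited intensity values are median spot and local background signals made by the authors with Agilent Feature Extraction 10.1.1.1, per the submitters' processing notes, and processed signals that are background corrected and dye normalized. The authors' deposited tables pair probes with symbols, and these name columns, marked as other in kind, were used for naming. Their columns of log2 fold change, p-value and q-value hold comparisons of the authors and were not used. The genome build behind the probes is not given in the sources used here.

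From the median signals, log2 ratios of diet over FeA were derived by limma 3.58.1 (R 4.3.3), using normexp with an offset of 50 and loess within each array, with channel levels from Aquantile normalization. Control spots and spots marked as outliers (722 to 938 per array) were left out. A probe passed when well above background (more than 50% of its spots) on both arrays in at least 1 diet, which 61.9% to 71.5% of spots were per channel. The number of arrays limits the precision. Tables and sequence searches were made in Python 3.11.15 (Biopython 1.88, numpy 2.4.6, pandas 2.3.3, scipy 1.17.1), and the steps were tested on simulated data.

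Besides the 5 Reg genes, the rule for genes to name picks, from each of 12 lists, up to 4 genes with the largest ratio and any at or past a log2 ratio of 1, Extl3, and the 3 genes nearest to each member. Others, such as Il6st, Il6r, Il22ra1, Osmr, Spink3, Nupr1 and Cdx1, were named after their values were seen. Of the genes the rule picks, 2 are not reported here, and the tallies of their lists include them. The members and lists were chosen with earlier results of these data known. Upstream sequences are those of RefSeq, build GRCr8, matched by symbol for 5 of 5 genes. Probe and protein sequences were not used here, so hybridisation between the related Reg3 genes was not checked.

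Alternatives tried were an offset of 0, unsubtracted background, processed signals, median centring, other filters and size criteria, the brightest probe, each array left out, the methods' t-test and limma's test, both of which compare pools.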

Additional observations from a re-analysis of the deposited data

Results flagged for a closer look

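Of the list genes that the naming rule picked and that are reported here, 8 moved in opposite directions in the 2 diets. Both FeD arrays lay on one side of 0 and both FeO arrays on the other. The difference between the diets was not tested for any of them, and each value is the FeO mean log2 ratio minus the FeD one. Pla2g2a, the nearest gene to Reg3a and Reg3b, was at -0.56 in FeD and 3.13 in FeO, a difference of 3.69. The adipocyte markers Cfd, Car3, Retn and Pparg differed by 2.70, 2.36, 2.27 and 1.62, and most of each difference lay in FeO. Their FeD means were slightly below 0, at -0.40, -0.22, -0.44 and -0.06. For Pparg the FeD ratios, -0.07 and -0.04, were smaller than the median difference of 0.22 between paired arrays, so it is not shown to be lower. Mmp7, a metalloproteinase of Paneth cells and ducts, was at 1.03 in FeD and at least 4.05-fold lower than FeA in FeO, a difference of -3.14 on the measured ratios. Ptprc, a marker of leukocytes in general, was at 0.65 in FeD and -0.43 in FeO, a difference of -1.08. Il1b, a cytokine known to induce Reg genes, was at 0.35 in FeD and -0.16 in FeO, a difference of -0.50. Outside that count, Ucma, near Reg3a and Reg3b, went the same way as Pla2g2a. It was at -0.33 and -0.66 in FeD and 2.76 and 2.96 in FeO. Nupr1, named after its values were seen, was at 0.17 and 0.35 in FeD and -0.45 and -0.13 in FeO.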

How the results depend on the processing

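None of the 8 member ratios at or past 1 in size changed sign in 69 recomputations. Of 55 recomputations of the 7 smaller ratios, 4 changed sign, all of Reg3g in FeO against FeD, which is not a measured ratio. The count of Reg genes past the size criterion was 1 in FeD, 3 in FeO and 3 in FeO against FeD. With the processed signals it was 3 in FeD (1 up, 2 down) and 5 in FeO (3 up, 2 down), because Reg3g and Reg4, dim in both diets, came to -2.45 and -3.10 in FeD and -2.25 and -4.35 in FeO. With an offset of 0, Reg4 reached -2.68 in FeO. With median centring the FeD count was 0. Adding the methods' t-test with Benjamini-Hochberg adjustment gave 0 members in FeD and 0 in FeO, and 0 probes in all, with 1093 and 1442 probes below 0.05 unadjusted, whereas limma's test with the same adjustment passed 93 and 185 probes. These tests include the values the genes were chosen on. Leaving out an array gave counts of 0 to 1 in FeD (0 without array 2), 3 in each case in FeO and 2 to 3 in FeO against FeD. Over all alternatives Reg1a lay between 1.88 and 2.21 in FeD and between 4.04 and 4.45 in FeO, Reg3a between 0.92 and 1.06 and between 4.55 and 4.79, and Reg3b between 0.74 and 1.04 and between 3.95 and 4.29. Of 456 recomputed list results, 59 moved and 0 of the list medians past 1 changed sign. With genes that passed in 1 pool included, 8 of 12 intestinal markers were at -1 or less in each comparison (medians -1.37 and -1.78), the goblet and Paneth medians were -0.63 and -0.61, and with processed signals these came to -2.04 and -2.50. No paired analysis was possible because the array numbers name the dye orientation only and each ratio is already taken within an array. With 1 pool per diet, neither test speaks of rats or diets. Signal near background limits Reg3g and Reg4 to bounds that hold for the mean of 2 arrays and the processing used here only. The bounds given for other dim genes have the same limit.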
